A study of Mus musculus with 4 samples.

Results

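The genes described here are 10 members of the Hippo pathway in mouse: the DNA-binding factors Tead1, Tead2, Tead3 and Tead4, the coactivators Yap1 and Wwtr1 (which encodes TAZ), the kinases Lats1 and Lats2, the corepressor Vgll4 and the scaffold Amotl2. They were taken by name, all 10 were found among 21440 protein-coding genes with a known strand in a RefSeq gene table of GRCm38.p6, and 62 of the 32011 distinct open regions in the deposited list lay at, in or nearest to them. The list comes from bulk ATAC-seq, which marks stretches of the genome that the Tn5 transposase can enter, in mouse salivary gland organoids (mSGOs). These were 4 non-irradiated C57BL/6 samples grown from submandibular gland cells, 2 of passage 1 and 2 of passage 2, and in both passages 1 sample is labelled 12 weeks and 1 is labelled 3 months of age. By the study's methods the mice were female and the samples came from different mice. The paper places its ATAC-seq at the younger of the 2 culture times that it compared. All were kept in Matrigel in WRY medium, which holds EGF, FGF2, N2, insulin, dexamethasone, the ROCK inhibitor Y27632 and medium conditioned with R-spondin1 and Wnt3a. The authors deposited a single list for the whole series, so no value belongs to a passage, an age or a mouse, depth per sample is unknown, and every comparison below is a description across genes with no test. A region open in fewer cells and a region less open in each cell cannot be told apart in bulk samples, and a region missing from the list may have fallen below the authors' threshold.

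Hippo signaling controls organ size, regeneration and the response of epithelia to contact and stretch. LATS kinases phosphorylate YAP and TAZ and so keep them in the cytoplasm, whereas unphosphorylated YAP and TAZ enter the nucleus and bind TEAD factors, which have no strong activation domain of their own. VGLL4 competes with YAP for TEAD, and AMOTL2, an angiomotin protein, holds YAP at cell junctions. AMOTL2 and LATS2 are also known as targets of YAP, through which the pathway restrains itself.

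Markers of the labelled tissue were read first, and 7 of 10 epithelial and duct genes had a region within 1 kb of the 5′ end, with folds from 2.95 at Krt5 to 7.82 at Sox9. The 3 without one were Krt18, Krt7 and Trp63, of which Krt7 had no region at all and Trp63 had 7 in the gene. None of the 3 acinar, 5 endothelial and 5 fibroblast markers had a region there, and among 5 immune markers Cd68 alone had one, with a fold of 4.58. All 5 endothelial markers had a region nearest to their 5′ end farther away, as did 2 of the 3 acinar, 2 of the 5 fibroblast and 1 of the 5 immune markers. Chrm3, 1 of the acinar markers, had 6 regions in the gene and a highest fold of 17.2. The part of other cell types in the regions below was not tested.

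Open regions were first counted at the 5′ ends. A region counted as at the 5′ end when its midpoint lay within 1 kb of the outermost 5′ end of the gene, which held for 6 of the 10 genes, beside 38.3% of all coding genes. Among coding genes of like length (within a factor of 1.25) the share without such a region ran from 51.4% for Lats1 to 63.3% for Tead1. Both coactivators had such a region, 2 of the 4 factors did (Tead3 and Tead4), neither kinase did, and Vgll4 and Amotl2 each had 1. The fold of a region is the signal at the summit with the lowest q-value over the local background, as the authors' peak caller gave it. At these 6 regions it ran from 4.49 to 8.95 with a median of 6.48, whereas the 8178 regions within 1 kb of any coding 5′ end had a median of 7.90 (quartiles 6.05 and 10.6).

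Amotl2 had the strongest of the 6, chr9:102717527-102717884 (coordinates of the list, GRCm38), with a fold of 8.95. Next came Wwtr1, whose region chr3:57575672-57576139 had a fold of 8.34 and a midpoint 5 bp from the 5′ end. The region of Tead4, chr6:128300312-128300957, had a fold of 7.42. All 3 held the highest IDR score that the list gives, 1000, which marks peaks that ranked alike in repeated calls and which 45.1% of all regions carried. The other 3 regions were weaker. That of Yap1, chr9:8004378-8005088, had a fold of 5.55 and an IDR score of 888. That of Tead3, chr17:28350835-28351089, had a fold of 5.19 and an IDR score of 847, and ended upstream of the start. That of Vgll4, chr6:114968728-114969352, had a fold of 4.49 and an IDR score of 727, lower on both measures than the other 5. With the 50% of regions that had the lowest q-values, or with an IDR score of 1000 required, 3 of 10 genes kept a region at the 5′ end, which were Tead4, Wwtr1 and Amotl2, so that 1 coactivator and 1 factor had one.

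The rule of 1 kb bore on Vgll4, Yap1 and Amotl2. The midpoint at Vgll4 lay 967 bp downstream of the outermost 5′ end, just inside the rule, and a second region of Yap1, chr9:8003289-8003879, lay just outside it at 1.05 kb with a fold of 8.14, higher than that of the region at its start. Within 500 bp neither Vgll4 nor Amotl2 had a region, and within 2 kb Amotl2 had a second one, at 1.34 kb with a fold of 3.81. The Vgll4 and Amotl2 regions sat at a RefSeq start inside the gene, 804 and 713 bp below the outermost end, which each region covered.

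**Figure D1:**
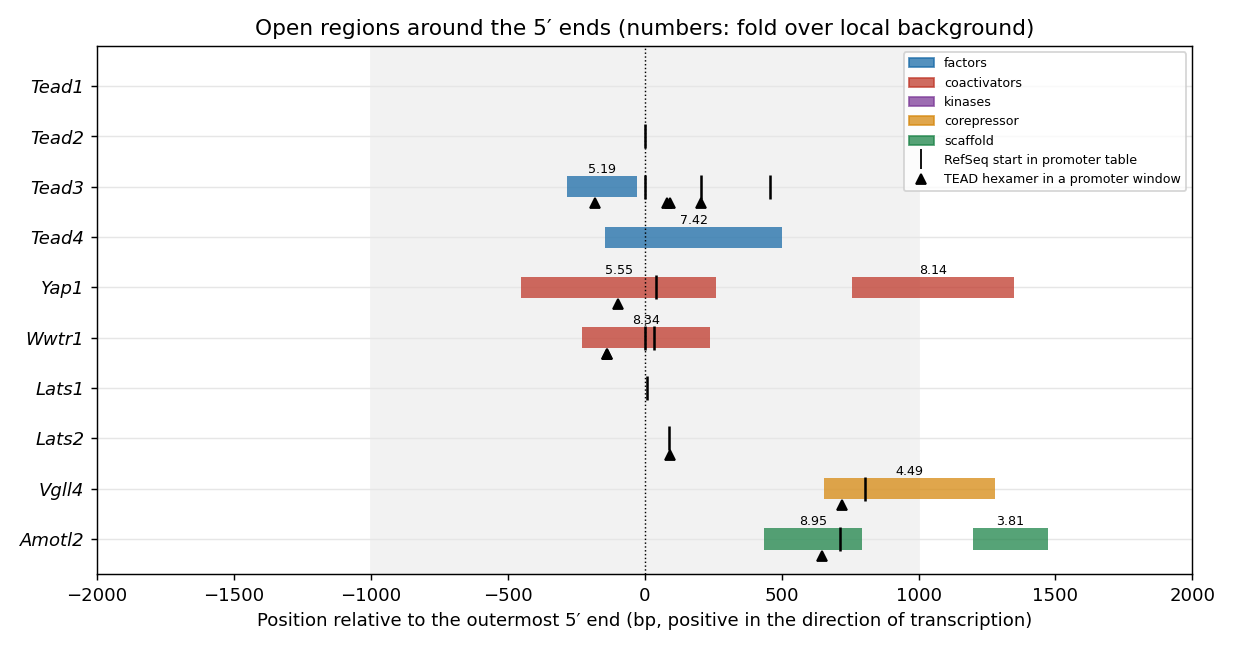
Open regions around the outermost 5′ end of the 10 genes. Bars span each region and are coloured by role, the number over a bar is its fold over the local background, vertical ticks are RefSeq starts in the promoter table, triangles are TEAD hexamers in the promoter windows and the grey band marks 1 kb on either side; the bars of Yap1, Wwtr1, Vgll4 and Amotl2 cover a RefSeq start, and Tead1, Tead2, Lats1 and Lats2 have no bar.

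The 4 genes without a region at the 5′ end differed among themselves. Tead2 and Lats1 had no region at the 5′ end, in the gene or nearest to it, as had 37.1% of all coding genes. Around Tead2, the region closest to the 5′ end lay 53.4 kb upstream, nearest to Slc17a7, which encodes a glutamate transporter of neurons. Lats1 has its start 137 bp from that of Pcmt1, a gene on the opposite strand that repairs aged proteins, and neither end had a region, the closest one lying 13.8 kb away and nearest to Nup43, a nuclear pore gene. Tead1 and Lats2 had regions, but none close to the outermost 5′ end. The closest to that of Tead1 lay 15.9 kb upstream with a fold of 6.73, and the closest to that of Lats2 lay 14.5 kb upstream with a fold of 6.10. A further RefSeq start inside Lats2 had a region midpoint 3.66 kb downstream of it. Widening the rule to 2 kb added no region at any of these 4 genes.

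Promoter sequences of 8 of the 10 genes were in a RefSeq table of GRCm38.p6, as windows from 250 bases before to 50 after each RefSeq start, 12 windows in all. Tead1 and Tead4 had no entry. A region covered at least 1 bp of a window at Tead3, Yap1, Wwtr1, Vgll4 and Amotl2, and of 36.7% of the 21263 windows of coding genes. At Yap1, at Amotl2 and at the second start of Wwtr1 the whole window of 300 bases lay inside the region, at Vgll4 199 bases and at Tead3 221. TEAD factors bind the letters GGAATG, read CATTCC on the other strand, and both strands of each window were searched. The hexamer was present in a window of 6 of the 8 genes, beside 15.5% of the 17492 coding genes with a window and 13.7% of the 6888 coding genes with a window that a region covered. A share by gene rises with the windows per gene, which were 12 for the 8 genes and 21263 for the 17492 coding genes. By window the share of coding genes' windows was 13.6% over all and 8.93% in those with 20 or more CpG. All 5 genes with a covered window held 1 hexamer inside the region, at 55 bp from the summit used in Amotl2, 69 bp in Tead3, 95 bp in Yap1, 163 bp in Wwtr1 and 273 bp in Vgll4. Lats2 held 1 in a window with no region, starting 4 bases after the RefSeq start, and Tead2 and Lats1 held none. A hexamer is a match of letters, and binding there was not measured. The windows that hold one are printed from RefSeq, 5′ to 3′ along the gene, with the hexamers in capitals, because they show where in these promoters the letters that the factors of the same pathway read lie.
Yap1, chr9:8004547-8004846, minus strand: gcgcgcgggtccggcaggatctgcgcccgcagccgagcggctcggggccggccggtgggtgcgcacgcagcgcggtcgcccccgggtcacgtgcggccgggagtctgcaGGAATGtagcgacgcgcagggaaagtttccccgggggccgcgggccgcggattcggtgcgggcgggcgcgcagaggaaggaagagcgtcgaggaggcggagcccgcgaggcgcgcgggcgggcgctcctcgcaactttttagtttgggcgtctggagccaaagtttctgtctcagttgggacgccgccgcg
Wwtr1, chr3:57575861-57576160, minus strand: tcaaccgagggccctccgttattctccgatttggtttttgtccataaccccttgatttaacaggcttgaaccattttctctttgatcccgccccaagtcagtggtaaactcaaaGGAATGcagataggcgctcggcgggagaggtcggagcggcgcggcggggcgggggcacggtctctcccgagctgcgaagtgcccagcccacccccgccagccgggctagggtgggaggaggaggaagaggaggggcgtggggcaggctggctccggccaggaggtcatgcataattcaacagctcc
Amotl2, chr9:102717554-102717853, plus strand: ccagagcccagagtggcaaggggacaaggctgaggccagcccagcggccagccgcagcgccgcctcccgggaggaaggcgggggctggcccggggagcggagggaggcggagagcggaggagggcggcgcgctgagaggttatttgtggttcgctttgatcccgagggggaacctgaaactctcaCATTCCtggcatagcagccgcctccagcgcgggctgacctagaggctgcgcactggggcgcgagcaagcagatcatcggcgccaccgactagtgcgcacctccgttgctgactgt
Vgll4, chr6:114969154-114969453, minus strand: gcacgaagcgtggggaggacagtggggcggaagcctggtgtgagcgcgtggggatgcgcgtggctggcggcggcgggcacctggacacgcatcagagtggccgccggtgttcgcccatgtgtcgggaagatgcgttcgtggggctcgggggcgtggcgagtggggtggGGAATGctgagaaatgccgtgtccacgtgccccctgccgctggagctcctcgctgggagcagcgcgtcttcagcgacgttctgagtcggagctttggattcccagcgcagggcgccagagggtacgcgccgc
Tead3, first start, chr17:28350756-28351055, minus strand: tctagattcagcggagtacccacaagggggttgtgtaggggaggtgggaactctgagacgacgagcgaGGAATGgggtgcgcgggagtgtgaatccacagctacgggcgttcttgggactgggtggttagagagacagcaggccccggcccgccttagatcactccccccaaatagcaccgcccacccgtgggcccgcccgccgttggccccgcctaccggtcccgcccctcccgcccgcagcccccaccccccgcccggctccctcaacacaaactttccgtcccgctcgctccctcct
Tead3, second start, chr17:28350551-28350850, minus strand: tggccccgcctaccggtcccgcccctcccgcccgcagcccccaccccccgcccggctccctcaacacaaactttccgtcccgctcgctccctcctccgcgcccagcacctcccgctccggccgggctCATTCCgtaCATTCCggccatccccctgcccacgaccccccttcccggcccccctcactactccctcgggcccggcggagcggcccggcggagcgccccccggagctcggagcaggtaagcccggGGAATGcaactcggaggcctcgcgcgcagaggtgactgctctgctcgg
Lats2, chr14:57746074-57746373, minus strand: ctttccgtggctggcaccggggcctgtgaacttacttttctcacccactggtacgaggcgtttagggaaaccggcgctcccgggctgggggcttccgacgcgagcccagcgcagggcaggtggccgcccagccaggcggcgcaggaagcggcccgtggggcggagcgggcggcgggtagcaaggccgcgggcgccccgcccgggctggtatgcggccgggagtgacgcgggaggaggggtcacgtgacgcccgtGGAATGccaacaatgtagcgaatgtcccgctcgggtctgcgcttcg

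The window at the second start of Tead3 held 3 hexamers, starting 123 and 114 bases before and 2 bases after that start, and none lay in the region, which covered 16 of its bases. In Yap1, Wwtr1, Vgll4 and the first window of Tead3 the letters read GGAATG along the gene and in Amotl2 CATTCC. The windows of both starts of Wwtr1 overlap and share their hexamer. Other motifs were searched in the same way. The GC box of SP and KLF factors (GGGCGG or CCGCCC) was in 11 of the 12 windows, beside 46.2% of all windows and 70.1% of covered ones. The 12 windows come from 8 genes and are not independent. Both windows of Wwtr1, and the first 2 of Tead3, overlap and share GC boxes. The AP-1 motif (TGANTCA) and the CCAAT box (CCAAT or ATTGG) were in 0 of the 12, beside 6.99% and 38.2% of all windows. No TEAD hexamer of these windows shared a base with a GC box. The windows of Lats1 and of the first start of Lats2 held 42 and 37 CpG, and the Yap1 window 49. Of all windows with 20 or more CpG, 63.1% were covered by a region, which the kinase windows were not. The Tead2 window held 13 CpG, in a class of which 43.6% were covered.

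Within the genes, Vgll4 held by far the most regions. Its 13 regions compare with 8 each in Tead1 and Wwtr1, 3 each in Tead4, Yap1 and Amotl2, 2 in Lats2, 1 in Tead3 and 0 in Tead2 and Lats1. With an IDR score of 1000 required, Vgll4 held 5, as did Tead1, Wwtr1 held 4 and Amotl2 1. The regions in Amotl2 below that score had folds of 3.81 and 5.24. A region in the gene was found in 8 of 10 genes, beside 39.5% of coding genes, and 8 or more in 3 of 10, beside 1.08% of coding genes. The genes differ in length from 16.3 kb for Amotl2 to 227 kb for Tead1, and long genes hold more regions, so each was set beside coding genes whose length was within a factor of 1.25 of its own (from 1.25 times shorter to 1.25 times longer). Of 1227 genes as long as Vgll4, itself included, 1 held 13 or more regions, which was Vgll4 (0.0815%). For Amotl2, 1.78% of 2581 such genes held 3 or more, for Wwtr1 2.86% of 1085 held 8 or more, and for Tead1 10.7% of 515 held 8 or more. The numbers in Yap1 and Tead4 were reached by 16.3% and 16.9% of genes of their length, that of Lats2 by 26.6% and that of Tead3 by 40.6%.

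**Figure D2:**
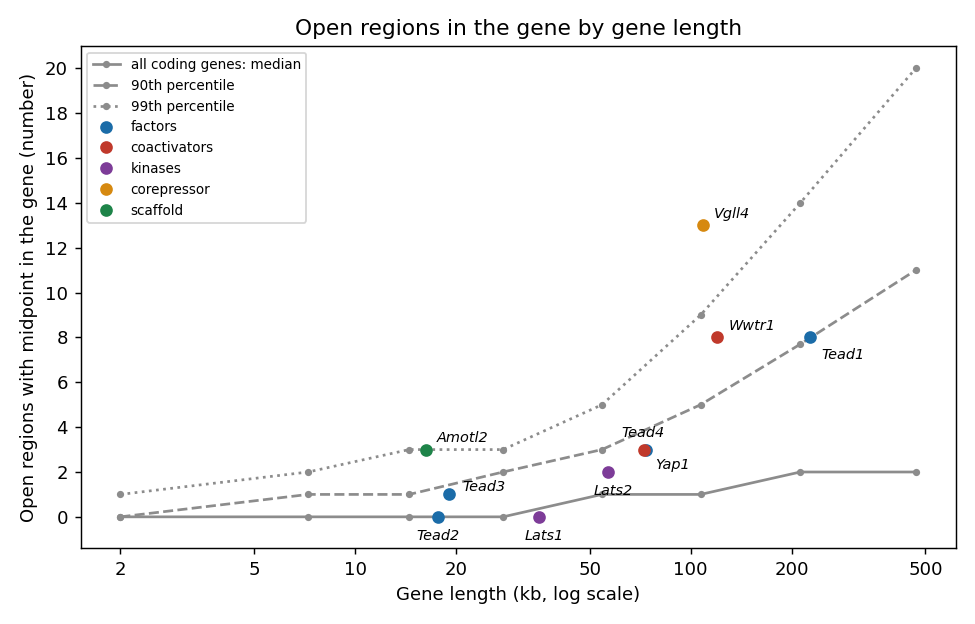
Number of open regions with their midpoint in the gene against gene length in kb (log scale), for the 10 genes (points, coloured by role) and for all coding genes in 8 classes of length (grey lines: median, 90th and 99th percentile). Vgll4, with 13 regions, and Amotl2, with 3, stand at or above the 99th percentile line, Wwtr1 and Tead1, with 8 each, at or above the 90th, and Tead2 and Lats1 at 0.

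By role, the 2 coactivators together held 11 regions in 193 kb (0.570 per 10 kb), the 4 factors 12 in 338 kb (0.355 per 10 kb) and the 2 kinases 2 in 91.8 kb (0.218 per 10 kb), where all coding genes together held 0.161 per 10 kb. The order was the same with any overlap in place of the midpoint and with the 50% of regions that had the lowest q-values. The factors were unlike one another. Their regions lay mostly in Tead1, with 8 of the 12, and none lay in Tead2. Vgll4 held 1.19 regions per 10 kb and Amotl2 1.84. Genes of 1 role differed widely, since the coactivators ran from 0.413 (Yap1) to 0.665 (Wwtr1), the factors from 0 (Tead2) to 0.523 (Tead3) and the kinases from 0 (Lats1) to 0.354 (Lats2).

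The strongest region of the 62 lay in Wwtr1, the gene of TAZ. This region, chr3:57527098-57527606, 48.6 kb below the 5′ end had a fold of 16.0. In Tead1, chr7:112720071-112720548, 41.0 kb below the 5′ end, had a fold of 13.7 and stood above 94.9% of regions. That of Tead4, chr6:128282129-128282670, lay 18.4 kb in and had a fold of 11.2. In Vgll4, the strongest was chr6:114911534-114911977, 58.3 kb in, with a fold of 11.2, closely followed by chr6:114888906-114889334 with 11.1. That of Yap1, chr9:7965514-7966224, lay 38.8 kb in and had a fold of 10.7. In Tead3 the value was 9.49 at chr17:28341024-28341483, and in Lats2 9.01 at chr14:57705040-57705447. In Tead3, Tead4, Yap1, Wwtr1 and Vgll4 the strongest region within the gene thus had a higher fold than the one at the 5′ end. All of these but Tead3 held several such regions, of which the strongest was taken. Regions weaker than the one at the 5′ end also lay in Tead4, at 5.88, in Wwtr1, down to 5.42, and in Vgll4, at 4.07. Amotl2 had its strongest region in the gene at the start itself. The gene table has no exons, so that exon and intron were not told apart.

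As a set, the 62 regions were not stronger than the rest of the list. Their median fold was 6.77 against 7.11 for all regions (quartiles 5.70 and 9.32), 9 of them had a fold over 10, beside 20.0% of all regions, and 27 had an IDR score of 1000 (43.5%). Their median width was 412 bp against 402 bp, and 17 of 62 had a single summit, where 22425 of all 32011 regions had several. Among 37 regions in the genes and over 1 kb from the gene's own 5′ end, the median fold was 6.53, and among 19 outside them 6.87. All regions over 1 kb from any coding 5′ end had a median of 6.75 in coding genes and 7.03 outside them, and of the 19 the 2 past the end of Vgll4 lay in another coding gene. The 18 regions of Vgll4 spread widely, from 4.07 to 11.2, and the 11 of Amotl2 from 3.81 to 10.9.

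**Figure D3:**
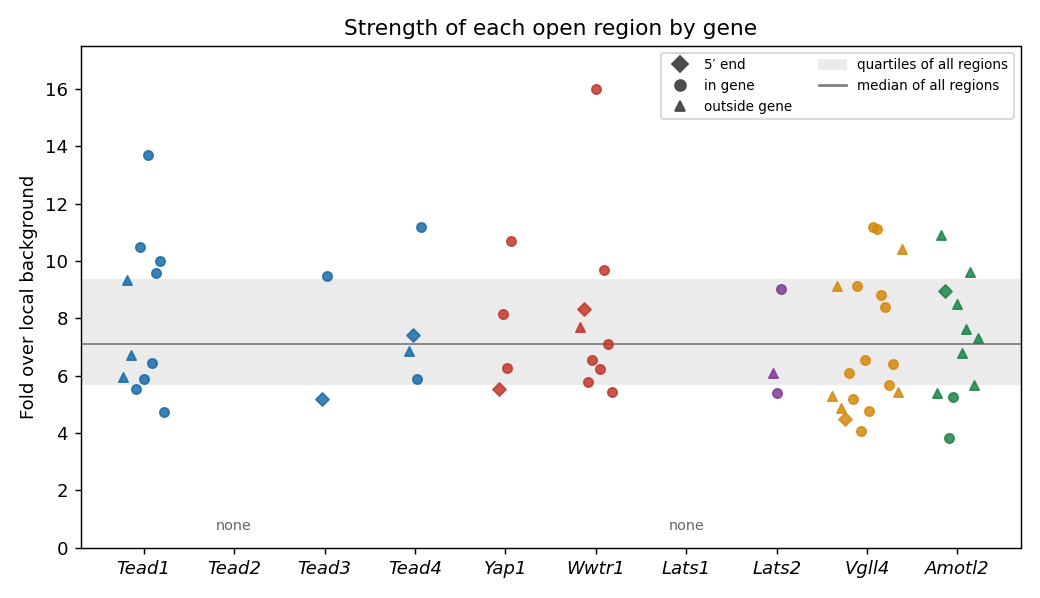
Fold over the local background at the summit with the lowest q-value of each of the 62 regions, by gene and in order of position, with diamonds for regions at the 5′ end, circles in the gene and triangles outside it. The grey band marks the quartiles of all 32011 regions (5.70 and 9.32) and the line their median (7.11); most points fall in or below the band, with Wwtr1 (16.0) and Tead1 (13.7) highest.

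Regions far from any coding 5′ end were given to the gene with the nearest one. There were 51 such regions for 8 of the 10 genes, beside 40.3% of coding genes with at least 1. Vgll4 had 17, Amotl2 10, Tead1 9, Wwtr1 7, Tead4 and Yap1 3 each, Lats2 and Tead3 1 each, and Tead2 and Lats1 0. In all, 3.38% of coding genes had 7 or more (7 being the number of Wwtr1), against 4 of the 10. A gene that stands alone collects more of them, and the sequence nearest to the 5′ end measured 263 kb for Tead1, 197 kb for Vgll4 and 6.92 kb for Lats1. Among genes with a stretch within a factor of 1.25, 3 of 1540 had as many as Vgll4, itself included (0.195%), and 5 of 2374 as many as Amotl2 (0.211%). These numbers depended on the rule, since with genes of every type competing Amotl2 had 2 in place of 10 and Wwtr1 2 in place of 7, while Vgll4 had 15 in place of 17. Within 50 kb of the 5′ end, Vgll4 had 8, Amotl2 8 and Wwtr1 4. For Wwtr1 the share was 2.50%, for Tead1 7.08%, for Yap1 16.9% and for Tead3, Tead4 and Lats2 between 21.2% and 29.2%. The nearest gene need not be the gene that a region acts on.

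Amotl2 and Vgll4 were surrounded in different ways. Amotl2 is short, and 8 of its 11 regions lay outside it, 2 upstream and 6 downstream as far as 54.6 kb. The strongest, chr9:102709487-102709877, lay 7.41 kb upstream with a fold of 10.9, and downstream regions reached 9.62 at 46.6 kb. In Vgll4, 13 of 18 regions were inside the gene and ran along its whole length, from 0.967 to 109 kb below the 5′ end. A further 3 lay 18.3 to 20.0 kb upstream, with folds of 4.86, 9.12 and 5.29, and 2 lay past the end of the gene, of which chr6:114812347-114812701, at 157 kb, was the strongest outside it with a fold of 10.4. Tead1 had 3 regions upstream, at 15.9, 22.8 and 33.3 kb, with folds of 6.73, 9.32 and 5.94. Tead4 and Wwtr1 had 1 each upstream, at 17.7 and 33.5 kb, and Yap1 and Tead3 none beyond 1 kb. In 3 genes, regions inside the gene lay nearest to the start of another. These were 2 in Tead1, nearest to Rassf10, 1 in Wwtr1, nearest to Tm4sf4, and both of those in Lats2, nearest to the predicted gene Gm52140.

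**Figure D4:**
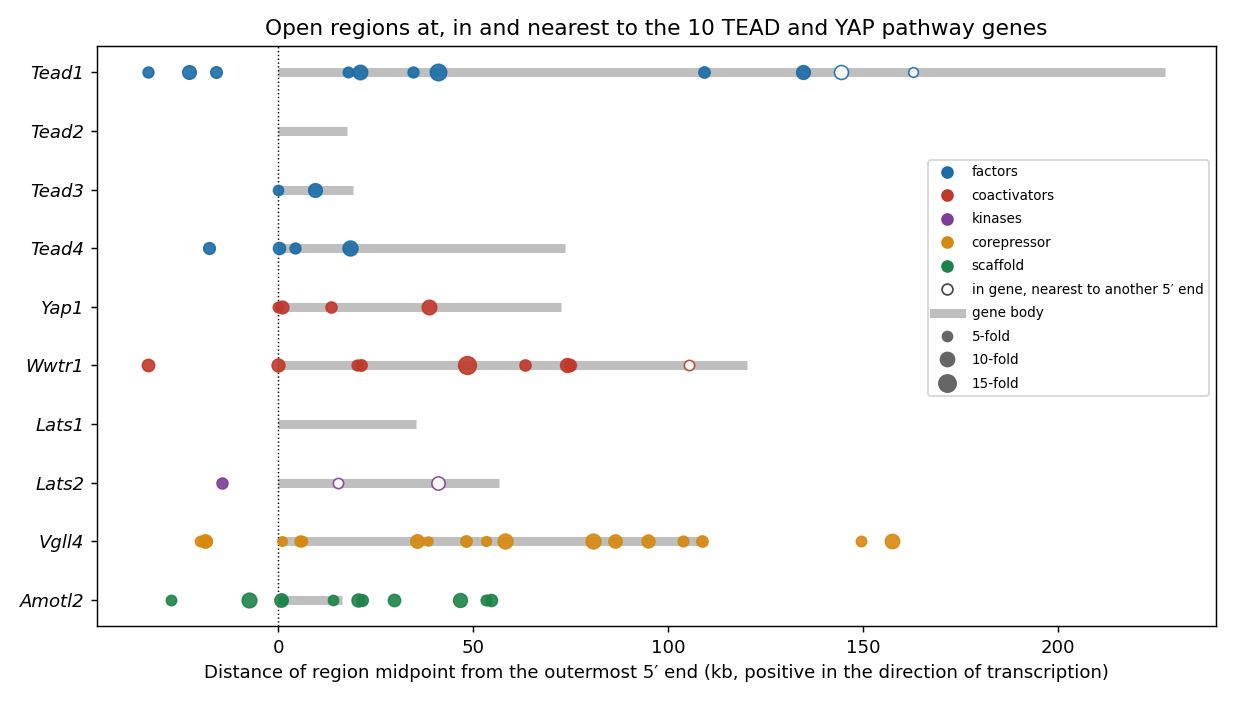
Midpoints of the 62 regions around the 10 genes, by distance in kb from the outermost 5′ end, positive in the direction of transcription. Grey bars are gene bodies, point area grows with fold, colours mark roles and white points are regions in the gene that lie nearest to another coding 5′ end; Vgll4 (18 regions), Tead1 and Amotl2 (11 each) and Wwtr1 (9) carry most points, and Tead2 and Lats1 none.

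Other genes of the pathway were read in the same way, from 4 lists. Of 10 genes of the core kinase cassette, which activates LATS, 6 had a region at the 5′ end (Mob1a, Mob1b, Nf2, Stk3, Stk4 and Taok3), 7 had one in the gene and 8 had one nearest to them. Those without one at the 5′ end were Sav1, Taok1, Taok2 and Map4k4. This holds for the outermost 5′ end only. In the promoter windows, a region covered 294 bases at Taok1 and 125 at Taok2. Further RefSeq starts were not counted for the lists. The highest folds at the 5′ ends of the cassette were 14.8 at Nf2, the tumor suppressor merlin, and 14.3 at Mob1a, an adaptor of the LATS kinases. Both were above the 5′ ends of all 10 genes described above. Stk3, which with Stk4 phosphorylates LATS, had 10.5. By the sum of regions in and nearest to the gene the first were Map4k4, with 6 and 8, Stk3, with 3 and 3, and Taok3, with 3 and 2. Among 16 genes that feed polarity and junctions into the pathway, 8 had a region at the 5′ end, 12 in the gene and 12 nearest. Tjp1 had none at the 5′ end but one over 190 bases of its promoter window. Ajuba, Amot and Amotl1 had regions at the 5′ end but 0 bases of the window covered. Ptpn14, a phosphatase that binds YAP, held 17 regions within 148 kb, and 0.119% of 840 genes of like length, itself included, held as many. It had 13 nearest. Fat1, an atypical cadherin, had 6 in the gene and 23 nearest, and Wwc1, the gene of KIBRA, had 6 and 15. Dchs1 and Scrib had none. The angiomotin relatives of Amotl2 differed in length and in regions in the gene, with 8 in Amotl1 (121 kb) and 1 in Amot (59.5 kb). Of genes of like length, 2.87% held as many as Amotl1 and 61.2% as many as Amot. Both had 2 regions at the 5′ end.

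Of the 3 further VGLL genes, Vgll3 had 1 region at the 5′ end, 4 in the gene and 5 nearest, Vgll2 had 3 nearest and Vgll1 had none. Of 20 commonly used target genes of YAP and TAZ, 9 had a region at the 5′ end (45.0%), 12 in the gene and 18 nearest. Ccn1 and Ccn2, secreted matrix proteins that are the usual readouts of YAP, had folds of 6.39 and 5.20 at the 5′ end, and 6 and 9 regions nearest to them. By the sum of regions in the gene and nearest, in which a region can count under both, the first 3 were Rbms3, with 17 in the gene and 16 nearest, in a gene of 1057 kb, Myof, with 13 and 13, and Tgfb2, with 4 and 18. By distinct regions Tgfb2 had 18, Rbms3 and Asap1 17 each and Myof 13. Of 864 genes as long as Myof, itself included, 0.810% held as many regions in the gene. Axl had none. Over the 49 genes of the 4 lists, 24 had a region at the 5′ end, 32 in the gene (65.3%) and 40 nearest (81.6%), with 1 and 3 as the median numbers in the gene and nearest, where the median coding gene had 0 of both.

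**Figure D5:**
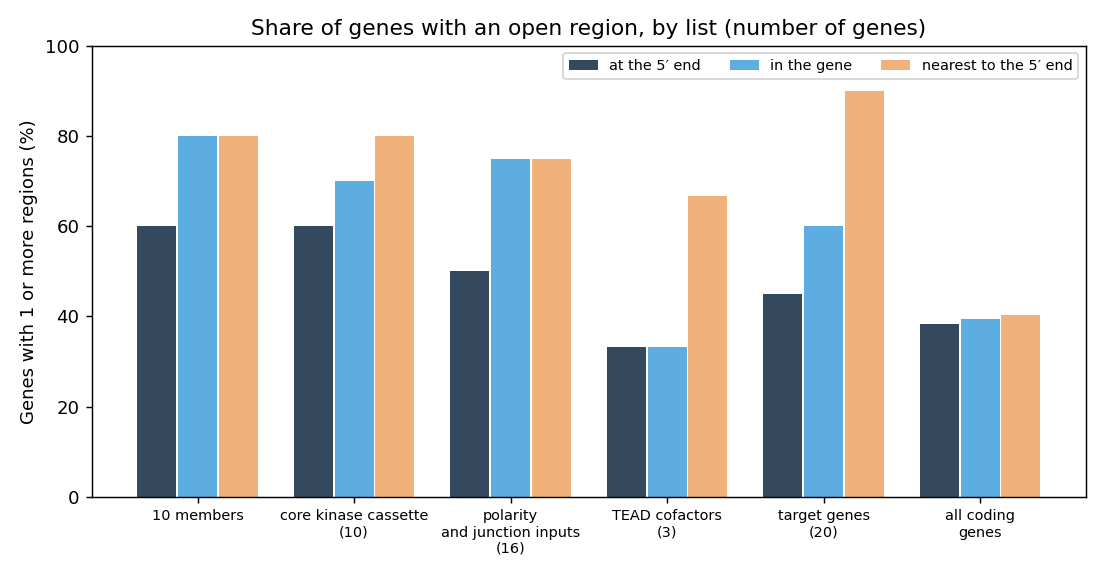
Share of genes with 1 or more regions at the 5′ end (dark), in the gene (blue) and nearest to the 5′ end (orange), for the 10 genes, the 4 pathway lists and all 21440 coding genes. The 10 genes have such regions in 6, 8 and 8 cases, and all coding genes at 38.3%, 39.5% and 40.3%. The groups are not matched for gene length.

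Of genes with 8 or more regions, 48.7% of 232 had none at the 5′ end, as did Tead1 among the 3 here. In the promoter windows, the TEAD hexamer was present in 14 of 36 genes of the 4 lists (38.9%) and in 4 of 13 target genes (30.8%), which were Ankrd1, Axl, Ccn1 and Crim1, beside the 15.5% of coding genes. Of these 4, the window of Ccn1 was covered by a region, over 253 bases.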

How the data were processed

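Organoids of 4 samples were profiled by ATAC-seq. By the study's methods, the authors ran the ENCODE ATAC-seq pipeline for alignment and peaks and made a consensus from all organoid samples; that the deposited list is this consensus, and the aligner and filters, are not given in the sources used here, and the size stated for the consensus differs from the number of distinct regions here. For every summit the deposited list holds an IDR score, a fold, which is a ratio of signal to local background, and the q-value as −log10. Its 69545 lines were joined into 32011 distinct regions, each with the values of the summit that had the lowest q-value. The labels' processing notes name HOMER and GRCm39, but regions ended past the GRCm39 chromosome end on 8 of 21 chromosomes, and the list was read as GRCm38. Genes came from a RefSeq table of GRCm38.p6, with strand from a RefSeq promoter table of that build for 17492 coding genes and by name from GENCODE mouse release 39 for 3948 (Tead1 and Tead4 among them). Without a strand, 447 coding genes were left out, and 85 regions beyond the outermost coding 5′ ends had no nearest gene. Counting was tested on simulated data. The members and lists were chosen with earlier results of these data known, and no test was run. Named genes were all 10 members and, of each pathway list, the 3 with most regions in the gene plus nearest and the smaller set with or without a region at the 5′ end where it held 5 or fewer. Other genes named from these lists were added after their values were seen. Python 3.11.15, numpy 2.4.6, pandas 2.3.3 and matplotlib 3.10.9 were used.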

Additional observations from a re-analysis of the deposited data

How the results depend on the processing

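With the 50% of regions that had the lowest q-values, 3 of the 10 genes and not 6 had a 5′-end region, and with an IDR score of 1000 required the number was also 3; it was 4 within 500 bp and 6 under 5 other settings. Regions in the genes numbered 41, against 23 in the stricter set by q-value, 20 with an IDR score of 1000 and 86 by summit. Regions nearest to them numbered 51, against 27, 22 and 109. Per 10 kb of gene, the stricter set by q-value gave 0.237 for factors, 0.311 for coactivators and 0.109 for kinases. These sets are smaller or larger by construction. With genes of every type competing, 34 regions were nearest (2 and not 10 for Amotl2, 2 and not 7 for Wwtr1), and within 50 kb 35 (8 and not 17 for Vgll4). The median fold was 5.83 with the mean over summits. In all, 16 of 27 values over the 10 genes stayed and 11 moved. A value stayed when it was equal to the reported one or at most 1.5 times larger or smaller. For single genes 144 of 200 stayed and 56 moved. Tead2 and Lats1 had 0 in every setting and count as stayed, and in the stricter sets they could not have moved. The same holds for Tead1 and Lats2 at the 5′ end. Without promoter windows, Tead1 also could not have moved with further RefSeq starts. Strand from GENCODE alone and further RefSeq starts were tried after the data were seen. No paired analysis was possible because the list pools the samples, and no sample could be left out. The unknown depth bounds what the absence of a region can mean.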

Other observations

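Among the junction genes that feed the pathway, Limd1, whose protein binds LATS kinases, had 3 regions and the highest fold of any gene in the 4 lists, 35.2, with none at its 5′ end. Amotl1 had a region with a fold of 15.8. Both were chosen after their values were seen.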
